A study of Mus musculus with 24 samples.

Results

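The genes described here are the cytosolic ribosomal protein genes of the mouse, chosen by name: protein-coding rows of the count table whose symbol begins with Rpl or Rps and a number, together with Rplp0, Rplp1, Rplp2 and Rpsa, without the Rps6k kinases and without names in -ps. The rule took 86 of the 45706 genes in the table. It found 359 rows with such a name, of which 257 were not annotated as protein coding, 6 were coding rows with -ps in the name and 10 were kinases. Of the 86 genes, 43 belong to the large subunit, 3 to its stalk and 31 to the small subunit, which gives 77 core ribosomal proteins. A further 8 are paralogs of a core gene (Rpl3l, Rpl7l1, Rpl10l, Rpl22l1, Rpl36al, Rpl39l, Rps27l and Rps27rt). The last, Rps19bp1, encodes a protein that binds Rps19 and is not part of the ribosome, so the label did not hold for it.

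RNA was measured in tissue-resident macrophages (TRMs) of female C57BL/6J mice, aged 8 to 12 weeks by the labels. The ex vivo groups were microglia (MG), Kupffer cells (KCs), peritoneal macrophages (PMs) and alveolar macrophages (AMs), each sorted by FACS from a fresh cell suspension with antibodies to CD45 and CD11b, and for KCs also F4/80 and TIM-4, for PMs F4/80 and CD115, and for AMs SiglecF. The in vitro groups were the TRM-like cells (TRM-LCs) of the same organs after 14 days in flasks coated with polyethylenimine: MG-LCs with M-CSF and IL-34, KC-LCs and PM-LCs with M-CSF, all at 3% oxygen and high glucose, and AM-LCs with GM-CSF at atmospheric oxygen without glucose. Each of the 8 groups held 3 libraries. A flask was seeded with the cells of 3 brains, 1 liver, the peritoneal cells of 3 mice or 3 lungs, so cultured cells could come from pooled animals. The labels do not say which libraries came from separate animals or flasks, so p-values measure the spread between these libraries, which may be technical. Medium, oxygen, time in culture and FACS sorting changed together between ex vivo and in vitro, and cannot be told apart. Liver and lung were digested with enzymes, brain was homogenized without them, and peritoneal cells came by lavage. Between sorted populations, tissue and dissociation therefore cannot be told apart.

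A ribosome has a small subunit that reads the mRNA and a large subunit that joins amino acids. Cells make all of its proteins in nearly equal numbers, and many of their mRNAs start with a run of pyrimidines, the 5′ terminal oligopyrimidine (TOP) motif, through which mTOR and Larp1 control their translation. Growing and dividing cells make more ribosomes than resting cells do. The acidic stalk, made of Rplp0 with Rplp1 and Rplp2, recruits elongation factors to the large subunit.

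The starts of the genes show this shared feature and where it is absent. RefSeq promoters (build GRCm38.p6) were available for 66 of the 86 genes. A run on the sense strand of a C followed by at least 7 further C or T, within 15 bases on either side of the annotated start, was present in 24 of 57 core genes with an entry (42.1%), against 10.8% of all 27025 genes with an entry. On the other strand, the shares were 5.26% and 11.9%. The lengths of run and window were taken after 15 combinations had been tried, and the share of the core genes exceeded that of all genes in 15 of 15 (by 1.55 to 6.61 times). Windows around 8 starts are shown, with the run in capitals and 15 bases before the annotated start and 15 from it on. The first 4 hold a run: those of a stalk protein, of the core gene with the smallest adjusted p between sorted populations, of a gene that was higher in sorted MG, and of Rack1, a ribosomal protein that the name rule does not take.
Rplp2: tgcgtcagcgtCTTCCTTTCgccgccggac
Rps9: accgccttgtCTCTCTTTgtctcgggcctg
Rps27: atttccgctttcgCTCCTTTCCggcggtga
Rack1: cggaggccgCTCTTTCTTTTTCTCCacagg
The other windows hold none: those of both core genes with the smallest p for a state difference between populations among genes with an entry, and of the paralogs Rpl3l and Rpl7l1, whose calls differed from those of their partners.
Rpl23: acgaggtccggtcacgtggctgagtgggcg
Rps3a1: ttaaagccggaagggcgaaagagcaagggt
Rpl3l: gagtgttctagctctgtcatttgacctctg
Rpl7l1: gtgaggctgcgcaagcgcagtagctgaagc
They lie at chr7:141447636-141447665 (Rplp2), chr7:3704026-3704055 (Rps9), chr3:90213634-90213663 on the minus strand (Rps27), chr11:48800345-48800374 (Rack1), chr11:97782425-97782454 on the minus strand (Rpl23), chr3:86142654-86142683 on the minus strand (Rps3a1), chr17:24727811-24727840 (Rpl3l) and chr17:46782642-46782671 on the minus strand (Rpl7l1). An annotated start can differ from the one a cell uses, so a window without a run says only that these letters are not in it.

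The libraries held 29569486 to 47105111 counted reads, of which 57572 to 318240 fell on the 86 genes. In sorted MG the genes took 0.179%, 0.186% and 0.184% of all counted reads. Sorted KCs gave 0.619%, 0.235% and 0.244%, sorted AMs 0.473%, 0.425% and 0.403%, and sorted PMs 0.738%, 0.638% and 0.688%. Sorted MG were thus the lowest group and sorted PMs the highest, with no overlap between them and any other sorted group, and KC replicate 1 stood far above the other KC libraries and was the highest of the 3 in 80 of 86 genes. In culture the shares lay close together between tissues and spread widely within them: 0.812%, 0.500% and 0.452% in MG-LCs, 0.587%, 0.745% and 0.519% in KC-LCs, 0.569%, 0.794% and 0.295% in PM-LCs, and 0.618%, 0.543% and 0.587% in AM-LCs. The mean share in vitro was 3.21 times that ex vivo for MG, 1.69 times for KCs, 0.804 times for PMs and 1.34 times for AMs. Fewer cells of a type and less RNA per cell cannot be told apart in such bulk samples.

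**Figure D1:**
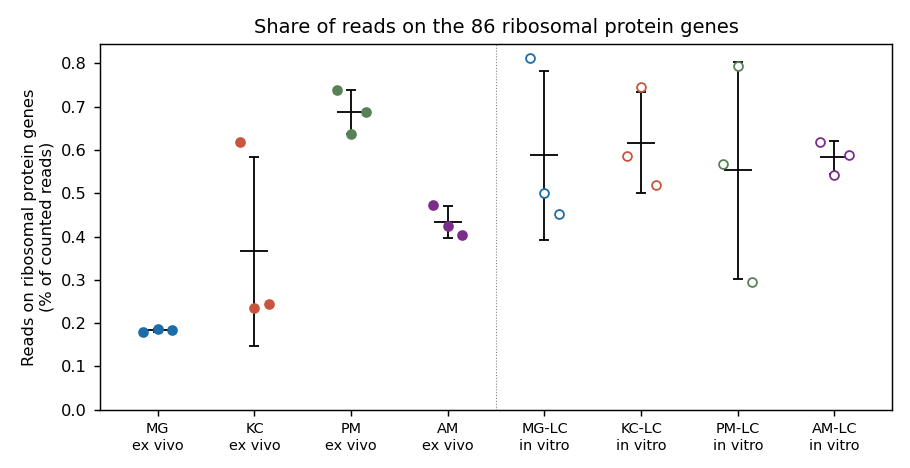
Reads on the 86 ribosomal protein genes as a percent of all counted reads (vertical axis, from 0) in each library of the 8 groups; filled points are ex vivo, open points in vitro, and the bar and whiskers are the mean and SD of 3 libraries. The 3 sorted MG libraries sit at 0.179% to 0.186%, below every other library, and KC replicate 1 at 0.619% stands above the other sorted KC libraries.

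Some libraries stood apart by markers of other cells, and these values belong beside the shares. In MG-LC replicate 1, the summed level of 8 fibroblast and mesothelium genes (Col1a1 and others) was 30979 CPM (reads per gene divided by the TMM-adjusted size of the library), against 7.39 and 1012 CPM in the other MG-LC libraries and at most 0.271 CPM in sorted MG, where 4 to 6 of the 8 genes were at 0. PM-LC replicate 2 had 2209 CPM of this list, against 22.9 and 366 CPM in the other PM-LCs. Both are the libraries of their groups with the highest ribosomal protein share. In sorted KC replicate 1, 6 Kupffer cell genes summed to 15064 CPM, against 26164 and 25797 CPM in replicates 2 and 3, 6 T and NK cell genes to 174 CPM against 28.2 and 29.96 CPM, and 12 proliferation genes to 786 CPM against 388 and 378 CPM. Proliferation genes summed to 51.7 to 59.7 CPM in sorted MG and to 270 to 989 CPM in MG-LCs. The sorted cells carried the defining genes of their labels (Tmem119 at 4395 CPM in MG, Clec4f at 11739.5 CPM in KCs, Gata6 at 144 CPM in PMs and Siglecf at 652 CPM in AMs), while in culture these lay at 23.6 CPM, 0.0560 CPM, 17.1 CPM and 179 CPM, so that Clec4f was at or near 0 in KC-LCs. The part of these cells and markers in the differences below was not tested, beyond leaving out each library in turn.

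In MG, the family as a whole was lower ex vivo than in vitro. Of 84 genes tested, 62 rose in MG-LCs and 3 were higher in sorted MG, by edgeR's quasi-likelihood test at an adjusted p of 0.05, against 25.2% and 21.2% of all 14416 genes in the same directions. The median log2 fold change of the members was -1.92 (ex vivo minus in vitro), against -0.03 over all genes. In 69 genes, every MG-LC library lay above every sorted MG library (30.1% of all genes). The small subunit (25 of 31 genes higher in vitro, median -2.14), the large subunit (28 of 43, median -1.63) and the stalk (3 of 3, median -2.12) all showed it.

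Rplp0, the scaffold of the stalk, was at 69.1, 69.1 and 74.3 CPM in sorted MG and at 441, 263 and 200 CPM in MG-LCs. The groups did not overlap, and the log2 fold change was -2.14 ± 0.33 (SE; adjusted p = 0.00473). Rpl32, a large-subunit protein with a high level in all groups, was at 39.7, 39.7 and 40.2 CPM against 347, 311 and 240 CPM, a log2 fold change of -2.96 ± 0.21 (adjusted p = 0.000786). Rpl38, another large-subunit protein, known for its part in the translation of Hox mRNAs, had 4.30, 5.17 and 3.08 CPM ex vivo and 38.5, 33.2 and 26.0 CPM in vitro. Its log2 fold change of -3.01 ± 0.30 (adjusted p = 0.00138) was the largest of any core gene in this comparison. Rps27l, the p53-responsive paralog of Rps27, went further still, from 19.7, 21.9 and 17.0 CPM to 215, 157 and 106 CPM (-3.08 ± 0.31, adjusted p = 0.00148). Without MG-LC replicate 1, 61 genes were higher in vitro, 4 were higher ex vivo and the median was -1.65.

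The 3 genes higher in sorted MG were Rpl10a, Rps27 and Rpl10. Rpl10a was at 35.9, 29.9 and 37.9 CPM ex vivo and 10.3, 11.5 and 14.9 CPM in vitro (1.46 ± 0.21, adjusted p = 0.00407). Rps27 had 6.76, 5.90 and 5.06 CPM against 2.26, 1.44 and 2.60 CPM (1.44 ± 0.37, adjusted p = 0.0220), and Rpl10, the protein that joins the large subunit last and is X-linked, 28.4, 20.05 and 28.1 CPM against 10.6, 13.7 and 16.7 CPM (0.86 ± 0.25, adjusted p = 0.0339). Ribosomal protein genes have many near-identical processed pseudogenes, and a 50-base read from such a stretch cannot be placed. Of the 50-base windows of their transcripts, 11.9% in Rpl10a, 1.35% in Rps27 and 14.6% in Rpl10 were found in no other annotated gene and clear of other genes' exons, against a median of 46.7% over the 77 core genes. How the authors treated reads with several matches is not given in the sources used here, so the values of these genes are uncertain. Of the 21 core genes with under 20%, 9 were called higher in MG-LCs, these 3 higher in sorted MG, and 9 in neither direction. Over all 77 core genes, 56 were called higher in MG-LCs and 3 in sorted MG. All 3 genes higher in sorted MG thus had few countable windows. The part of read placement in these calls was not tested.

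**Figure D2:**
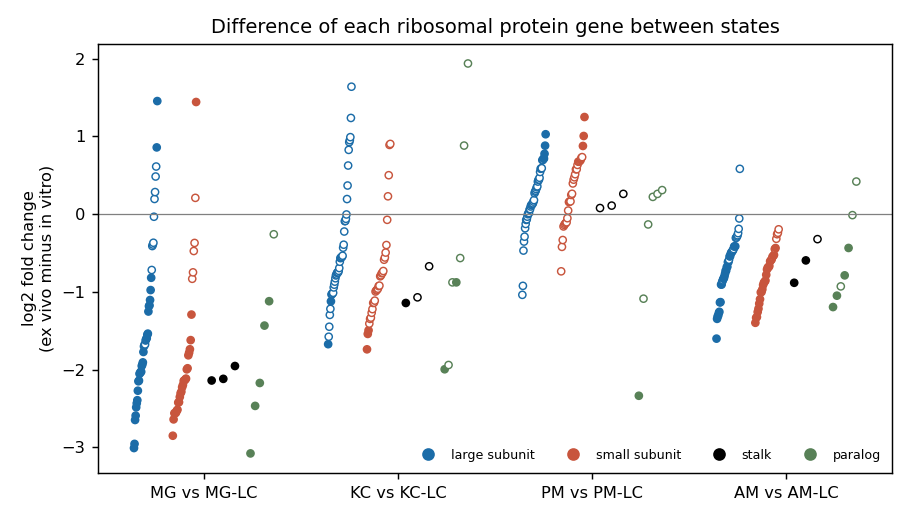
Log2 fold change (ex vivo minus in vitro, vertical axis) of each ribosomal protein gene tested in the 4 comparisons, by role (colours), sorted by value within a role; filled points passed an adjusted p of 0.05. Most points lie below 0 in MG (median -1.92) and AMs (median -0.68), while PMs scatter around a median of 0.23.

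In KCs, few genes passed the test. Of 85 genes tested, 9 were higher in KC-LCs and 0 in sorted KCs, against 14.4% and 19.4% of all genes, so the share of members called (10.6%) was below the background. The 9 were Rplp0, Rpl7, Rpl32, Rpl34, Rps3, Rps7, Rps14, Rps27l and Rpl7l1. At an unadjusted p of 0.05, 30 genes were higher in vitro and 1 ex vivo, limma-voom called 24 and 0, and DESeq2 called 16 and 0. The median log2 fold change was -0.76 (0.01 over all genes).

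Replicate 1 of the sorted KCs decided this count. Rplp0 was at 236, 136 and 130 CPM in sorted KCs and at 382, 435 and 322 CPM in KC-LCs (-1.14 ± 0.31, adjusted p = 0.0242), and the groups did not overlap. Rpl32 was at 198, 68.0 and 68.8 CPM against 280, 471 and 345 CPM (-1.67 ± 0.47, adjusted p = 0.0293), and Rps14 of the small subunit at 195, 65.6 and 62.7 CPM against 259, 568 and 283 CPM (-1.74 ± 0.54, adjusted p = 0.0399). In these genes too all KC-LC libraries lay above all sorted libraries, with sorted replicate 1 the nearest to them. Rpsa, which also serves as a laminin receptor, showed 18.05, 4.78 and 7.82 CPM against 19.5, 18.7 and 16.2 CPM (-0.79 ± 0.50, adjusted p = 0.259). Without replicate 1, 54 genes were higher in vitro and 0 ex vivo, with a median of -1.36. When another single library was left out, 1 to 4 were higher in vitro.

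In PMs, members were called higher ex vivo about as often as other genes, and seldom in vitro. Of 84 genes tested, 11 (13.1%) were higher in sorted PMs and 1 (1.19%) in PM-LCs, against 12.1% and 16.8% of all genes. The 11 included Rpl29, Rpsa, Rpl13, Rps3a1, Rpl6, Rpl7, Rpl14, Rpl8, Rps4x and Rps20, and the gene higher in PM-LCs was the paralog Rpl39l. The median log2 fold change was 0.23 (-0.01 over all genes), and in 27 genes every sorted PM library lay above every PM-LC library (24.4% of all genes).

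Rpl29 was at 37.3, 28.0 and 28.3 CPM against 15.9, 18.5 and 11.6 CPM (1.03 ± 0.25, adjusted p = 0.0204), and Rpsa at 31.4, 27.1 and 27.7 CPM against 13.3, 20.6 and 9.14 CPM (1.01 ± 0.31, adjusted p = 0.0488). In both genes the groups did not overlap. The stalk genes did not pass: Rplp0 was at 383, 372 and 370 CPM ex vivo and 365, 464 and 217 CPM in vitro (0.11 ± 0.27, adjusted p = 0.789). The PM-LC libraries themselves differed, with replicate 3 the lowest in 82 of 85 members with reads and replicate 2 the highest in 73. Rpl41, the shortest ribosomal protein, ran from 84.9 CPM in PM-LC replicate 3 to 212 and 351 CPM in replicates 1 and 2, on either side of the 90.8 to 115 CPM of sorted PMs (-1.04 ± 0.45, adjusted p = 0.128). The PM count also depended on single libraries: 0 genes were higher ex vivo without sorted PM replicate 1 or replicate 3, 1 without sorted PM replicate 2, 4 without PM-LC replicate 1, 14 without PM-LC replicate 3 and 16 without PM-LC replicate 2.

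In AMs, the family was again lower ex vivo, with a smaller median than in MG. Of 84 genes tested, 58 rose in AM-LCs and 0 were higher in sorted AMs, against 25.9% and 22.9% of all 13196 genes, and at an unadjusted p of 0.05 the counts were 62 and 0 (DESeq2 62 and 0). The median log2 fold change was -0.68 (-0.04 over all genes). In 71 genes the AM-LC libraries all lay above the sorted AM libraries (31% of all genes). With an absolute log2 fold change above 1.5 as a further condition, 1 gene passed (12.9% of all genes): Rpl41, at 81.6, 71.4 and 61.8 CPM ex vivo and 221, 225 and 203 CPM in vitro (-1.60 ± 0.13, adjusted p = 0.000181). Rps15a, of the small subunit, was at 31.7, 27.8 and 24.6 CPM against 73.4, 78.8 and 68.1 CPM (-1.40 ± 0.14, adjusted p = 0.000301), and Rpl13a, known for its part in the GAIT complex that silences inflammatory mRNAs, at 89.7, 81.9 and 72.3 CPM against 225, 211 and 182 CPM (-1.35 ± 0.13, adjusted p = 0.000275). The stalk gene Rplp0 went from 264, 227 and 223 CPM to 463, 439 and 407 CPM (-0.88 ± 0.11, adjusted p = 0.000955).

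Most ribosomal protein transcripts are short, and short transcripts moved as a class in some comparisons. Over all genes with transcripts under 1 kb, the median log2 fold change was 0.62 between MG and MG-LCs, -0.47 between AMs and AM-LCs, 0.18 for PMs and -0.12 for KCs. In MG the members moved against other transcripts under 1 kb, and in AMs in the same direction. Some members, such as Rpl4 and Rplp0, have transcripts of 1 to 2 kb. Over all genes of that length, the median was -0.32 in MG, -0.33 in AMs, -0.10 in PMs and -0.27 in KCs. With the trend on transcript length removed, 61 genes were higher in vitro in MG and 41 in AMs, and the AM median was -0.47. By start sequence, in MG the median was -1.80 in the 24 core genes with a pyrimidine run and -2.04 in the 33 without, and in AMs -0.87 in 24 and -0.57 in 32.

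The difference between states itself differed between populations. In one model of all 24 libraries, the interaction passed an adjusted p of 0.05 in 48 of 85 members, against 36.3% of all genes. Rpl23, a large-subunit protein that is also known to bind Mdm2, had the smallest p. It was at 10.2, 10.2 and 9.17 CPM in sorted MG and 48.0, 54.0 and 48.4 CPM in MG-LCs (-2.39 ± 0.16), while PMs had 70.6, 58.5 and 72.1 CPM ex vivo and 55.4, 54.1 and 36.3 CPM in vitro (0.47 ± 0.21). KCs (-0.73 ± 0.34) and AMs (-0.73 ± 0.12) lay between, and the adjusted p of the interaction was 2.15e-05. Rpl7 and Rps3a1 followed, with 4.71e-05 and 1.20e-04. Both were called higher in vitro in MG (-1.95 ± 0.22 and -2.12 ± 0.19) and higher ex vivo in PMs (0.72 ± 0.20, adjusted p = 0.0359, and 0.88 ± 0.21, adjusted p = 0.0212). In all, 11 members (12.9% of 85) were called in opposite directions in 2 of the comparisons, against 8.41% of the 16105 genes tested in any of them. All 11 rest on the calls higher ex vivo in PMs, of which 0 were made without sorted PM replicate 1 or replicate 3. Of the members, 0 were called higher in vitro in all 4 comparisons (2.83% of all genes), 8 in 3 (9.41% of members, 6.06% of all genes), 44 in 2 (51.8% and 10.3%) and 18 in 1 (21.2% and 19.9%).

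Ex vivo, the order of the tissues was the same in most of the family: PMs highest, then AMs and KCs, and MG lowest. The test among the 4 sorted populations passed in 67 of 85 members, against 70.9% of all genes, so sorted TRMs differed about as often in other genes. By group mean, PMs were highest in 63 of the 77 core genes, KCs in 10, MG in 4 and AMs in 0, and MG were lowest in 65, AMs in 11, KCs in 1 and PMs in 0. MG lay below PMs in 67 members (24.1% of all genes) and above them in 2 (20.6%), below KCs in 56 (24.7%) and above in 2 (17.5%), and below AMs in 60 (27.3%) and above in 3 (27.4%). KCs lay below PMs in 52 (15.8%) and above in 1 (20%). PMs were above AMs in 33 (18.6%) and below in 1 (18%). KCs and AMs, the neighbours in the middle, differed in 4 members each way (24.2% and 19.3%), with a median log2 difference of -0.27.

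Rps9, a small-subunit protein of the decoding site, had the smallest adjusted p among sorted populations (5.26e-06). It was at 90.0, 87.2 and 86.9 CPM in MG, 251, 152 and 152 CPM in KCs, 238, 222 and 202 CPM in AMs and 495, 443 and 431 CPM in PMs. MG and PMs were separate from all other libraries, whereas KC replicate 1 lay above the AM libraries and the other KC libraries below them. Rplp0 (1.05e-05) and Rpl7 (2.13e-05) had the same order, with Rpl7 at 22.1, 23.5 and 23.1 CPM in MG, 63.1, 28.7 and 39.2 CPM in KCs, 62.7, 59.0 and 52.7 CPM in AMs and 123, 114 and 135 CPM in PMs. Without sorted KC replicate 1, the calls between KCs and AMs rose from 8 to 57, those between KCs and PMs from 53 to 67, those between PMs and AMs from 34 to 65, and those between MG and KCs fell from 58 to 40.

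**Figure D3:**
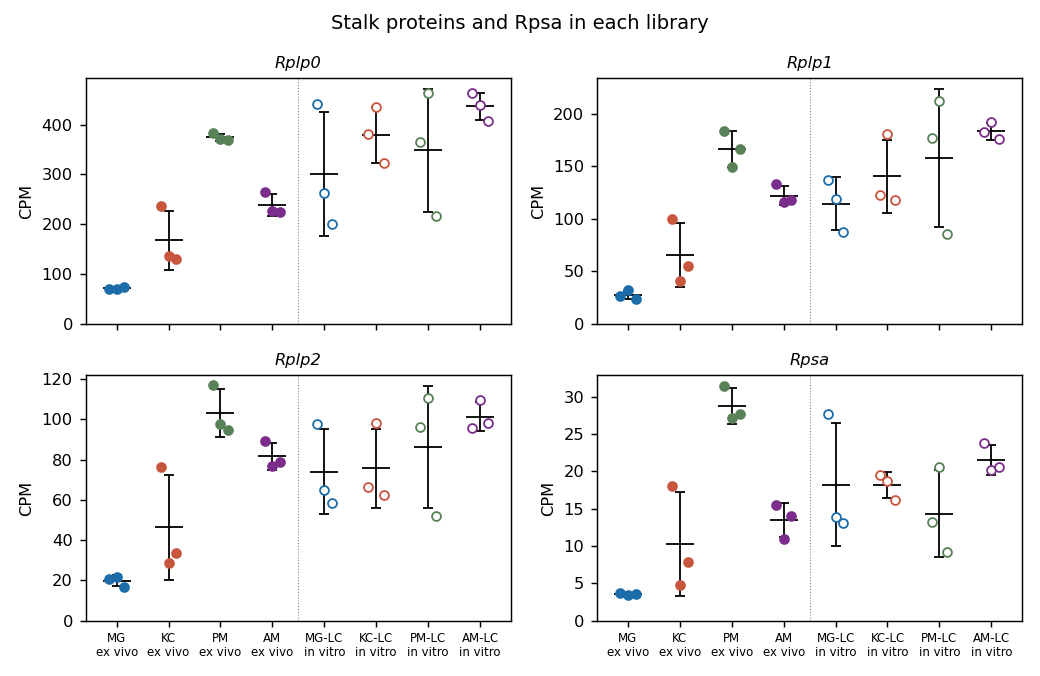
CPM (vertical axes, from 0) of the stalk genes Rplp0, Rplp1 and Rplp2 and of Rpsa in each library; filled points are ex vivo, open points in vitro, with the mean and SD of 3 libraries. In each gene the 3 sorted MG libraries are the lowest (Rplp0 at 69.1 to 74.3 CPM), the sorted PM libraries are the highest of the sorted groups. In vitro the 4 groups overlap in Rplp0 and Rplp2, while in Rplp1 the AM-LC libraries lie above those of MG-LCs.

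In vitro, this order was not seen. The test among the 4 cultured populations passed in 1 of 85 members, against 7.85% of all genes, and that member was the paralog Rpl3l. At an unadjusted p of 0.05 the count was 3, with limma-voom 1 and with DESeq2 3. Rpl3l was also the only member called in the 6 pairs of cultured populations, in each of the 3 pairs with AM-LCs, where 8.59% (MG-LCs), 7.64% (KC-LCs) and 5.29% (PM-LCs) of all genes were called. The pairs without AM-LCs gave 0 members, and few other genes: 0% between MG-LCs and KC-LCs, 0.0743% between MG-LCs and PM-LCs and 0.108% between KC-LCs and PM-LCs. The median log2 difference over the members lay between -0.30 (MG-LCs minus AM-LCs) and -0.04 (KC-LCs minus PM-LCs). By group mean, AM-LCs were highest in 51 core genes and MG-LCs lowest in 40, but these ranks were not beyond the spread between libraries. Rps9 was at 296, 239 and 251 CPM in MG-LCs, 252, 401 and 292 CPM in KC-LCs, 348, 384 and 190 CPM in PM-LCs and 370, 341 and 286 CPM in AM-LCs (adjusted p = 0.796). A test that misses the threshold with such a spread does not show equal levels.

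The paralogs held the exceptions. Rpl3l, which replaces Rpl3 in heart and skeletal muscle, was found in AMs. It was at 9.50, 6.45 and 5.60 CPM in sorted AMs and 4.93, 6.64 and 4.49 CPM in AM-LCs. In the other 18 libraries it was at 0.924 CPM or less, with 6 libraries at 0, where 3 reads correspond to 0.066 to 0.115 CPM. In MG and PMs it did not pass the filter on low counts between states, and it entered the tests among populations through the AM libraries, so its calls there add nothing to these levels. All 50-base windows of Rpl3l were countable. Its partner Rpl3 had a different pattern, at 22.9, 23.4 and 20.6 CPM in sorted AMs and at 20.6 to 48.1 CPM over all sorted libraries (adjusted p = 0.0749 among sorted populations).

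Rps27l and Rps27 parted in MG. As given above, Rps27l rose and Rps27 fell from MG to MG-LCs. Rps27l also was higher in vitro in KCs, from 74.3, 44.5 and 28.7 CPM to 146, 302 and 155 CPM (-1.997 ± 0.44, adjusted p = 0.0116), and in AMs, from 113, 85.7 and 71.8 CPM to 227, 209 and 181 CPM (-1.20 ± 0.18, adjusted p = 0.00183), where Rps27 did not pass (-0.20 ± 0.38, adjusted p = 0.7001). In PMs its value was -1.09 ± 0.46 (adjusted p = 0.122). Of the windows of Rps27l, 77.6% were countable, against 1.35% of those of Rps27.

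Rpl7l1, a Rpl7-like protein, did not pass in MG, where Rpl7 rose. It was at 99.9, 91.3 and 103 CPM ex vivo and 135, 110 and 95.2 CPM in vitro (-0.26 ± 0.19, adjusted p = 0.289). It was higher in vitro in KCs, from 68.7, 90.5 and 78.6 CPM to 143, 157 and 147 CPM (-0.88 ± 0.21, adjusted p = 0.0149), a gene in which sorted KC replicate 1 did not stand above the others. In AMs the change was -0.44 ± 0.13 (adjusted p = 0.0268). Rpl39l, known from testis, stayed at 3.75 CPM or less in all libraries and was higher in vitro in MG (-2.47 ± 0.71, adjusted p = 0.0315) and PMs (-2.34 ± 0.65, adjusted p = 0.0340). Rpl10l, another testis paralog, had reads in 2 of the 24 libraries and was not tested.

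**Figure D4:**
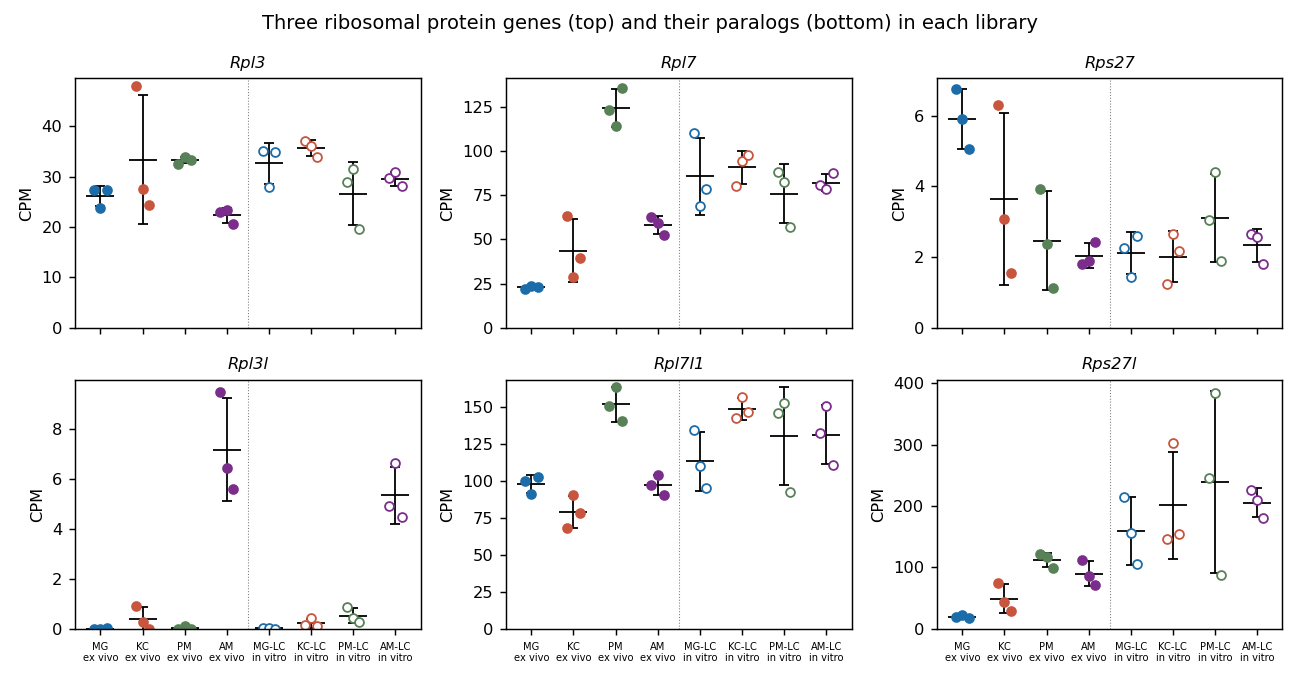
CPM (vertical axes, from 0, with separate scales) of Rpl3, Rpl7 and Rps27 (top) and of their paralogs Rpl3l, Rpl7l1 and Rps27l (bottom) in each library; filled points are ex vivo, open points in vitro, with the mean and SD of 3 libraries. Rpl3l lies at 4.49 to 9.50 CPM in the AM and AM-LC libraries and at 0.924 CPM or less in the rest, and Rps27l is lowest in sorted MG, at 17.0 to 21.9 CPM.

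Rpl22l1 and Rpl36al followed their family. Rpl22l1 was at 7.28 to 8.04 CPM in sorted MG and 14.3 to 18.6 CPM in MG-LCs (-1.12 ± 0.22, adjusted p = 0.00929), and Rpl36al had a log2 fold change of -1.43 ± 0.27 (adjusted p = 0.00799). Their partners were Rpl22 (-2.03 ± 0.21, adjusted p = 0.00153) and Rpl36a (-1.68 ± 0.57, adjusted p = 0.0527). In AMs the values were -1.05 ± 0.22 for Rpl22l1 and -0.80 ± 0.14 for Rpl22, both past the threshold. Rpl39, the partner of Rpl39l, was higher in MG-LCs (-2.49, adjusted p = 0.00150). The X-linked Rps4x, not a partner of these paralogs, was higher in vitro in MG (-1.78, adjusted p = 0.00202) and ex vivo in PMs (0.70, adjusted p = 0.0314). Rps27rt, a retrogene copy of Rps27, was at 0.264 to 0.649 CPM in sorted MG and 1.52 to 2.49 CPM in MG-LCs (-2.17 ± 0.53, adjusted p = 0.0191). Rps19bp1, which is not part of the ribosome, changed less in MG, at 11.2, 11.9 and 11.7 CPM ex vivo and 22.3, 17.3 and 15.5 CPM in vitro (-0.71 ± 0.22, adjusted p = 0.0422).

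Levels were compared between genes per kb of transcript. Some of these transcripts are long for their coding part: Rps15a has 5179 bases for 130 codons, Rps20 3706 for 119 and Rpl21 1856 for 160. CPM per kb and the share of countable windows therefore depend on the annotated transcript. Whether the countable windows lie in the mRNA that these cells make was not tested. Rps14 (353 CPM per kb) and Rpl32 (298) were among the genes with the highest mean levels over all 24 libraries. Core proteins are made in nearly equal numbers, but the reads measure mRNA and not protein. In CPM per kb, the highest and lowest core genes differed by 697-fold, down to Rpl24 at 0.506. The 21 core genes with under 20% countable windows had a median of 10.04 CPM per kb, and the 9 genes with over 80% had 64.4, with a Spearman correlation of 0.41 across the 77 genes (a description across genes, which share their libraries). Per kb of countable windows instead of transcript, the SD of log2 levels was 2.00 against 2.06 over 63 genes. The 14 core genes with under 100 countable windows, Rpl24 among them, could not enter this comparison, so the part of read placement in the whole spread was not tested. For the differences between states, in MG the median log2 fold change was -2.14 in the 35 core genes with over 50% countable windows and -1.64 in the other 42, and in AMs -0.73 and -0.58 (35 and 41 genes).

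**Figure D5:**
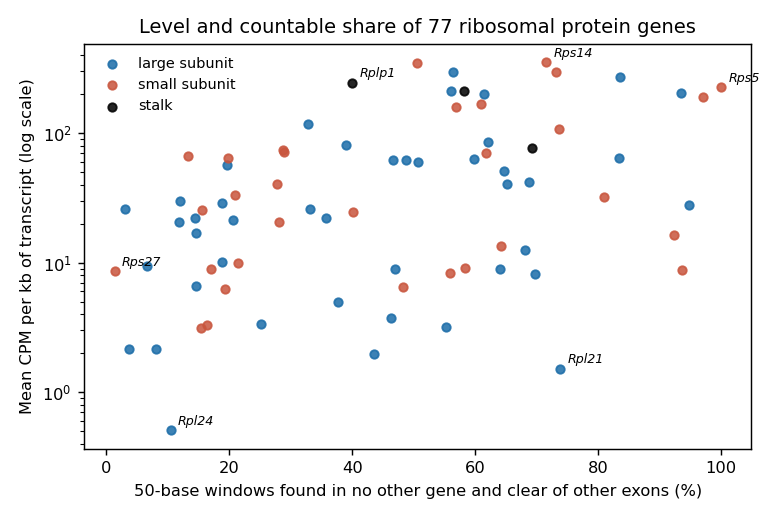
Mean CPM per kb of transcript over 24 libraries (vertical axis, log scale) against the percent of 50-base windows that were found in no other gene and lay clear of other genes' exons (horizontal axis) for the 77 core genes; colours mark the subunit. Genes under 20% had a median of 10.04 CPM per kb and genes over 80% one of 64.4. Rpl21 is low, with 73.8% countable windows over a transcript of 1856 bases for 160 codons.

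Rack1 and Fau, ribosomal proteins that the name rule does not take, were also called higher in vitro in MG and AMs. Rack1, a scaffold on the small subunit, was at 59.6, 60.4 and 66.0 CPM in sorted MG and 402, 192 and 188 CPM in MG-LCs (-2.12 ± 0.36, adjusted p = 0.00593), and had -0.69 ± 0.13 in AMs (adjusted p = 0.00403). Fau, made as a fusion with a ubiquitin-like protein, had -1.51 ± 0.41 in MG (adjusted p = 0.0254) and -1.07 ± 0.21 in AMs (adjusted p = 0.00550).

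Other genes of translation were taken from lists. Their counts stand beside 25.2% (MG), 14.4% (KCs), 16.8% (PMs) and 25.9% (AMs) of all genes called higher in vitro, and 21.2%, 19.4%, 12.1% and 22.9% called higher ex vivo. Of 15 elongation factors and other mRNAs with a TOP motif, 13 were higher in vitro and 0 ex vivo in MG (median -1.54), 6 and 0 in KCs (-0.60), 0 and 2 in PMs (0.26), and 9 and 0 in AMs (-0.55). The shares higher in vitro were 86.7% in MG, 60% in AMs and 40% in KCs, above those of all genes, and the share higher ex vivo in PMs was 13.3%, near that of all genes. Eef1a1, which brings aminoacyl-tRNA to the ribosome, was at 178 ± 5.47 CPM (SD, n = 3) in sorted MG and 793 ± 45.5 CPM in MG-LCs (log2 fold change -2.20 ± 0.21, adjusted p = 0.00126), and at 270 ± 79.2 CPM and 1011 ± 64.7 CPM in KCs and KC-LCs (-1.86 ± 0.30, adjusted p = 0.00414). Eef1g had -2.20 ± 0.48 in MG and -1.11 ± 0.18 in AMs (adjusted p = 0.00227). Pabpc1, the poly(A)-binding protein, went both ways, with -1.46 ± 0.17 in MG (adjusted p = 0.00202) and 1.24 ± 0.19 in PMs (adjusted p = 0.00320).

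The mitochondrial ribosome, which translates the mitochondrial genome and is built from other genes, was taken as a further list. Of 77 genes tested, 45 were higher in vitro and 1 ex vivo in MG (median -0.84), 23 and 0 in KCs (-0.64), 2 and 0 in PMs (-0.24) and 35 and 3 in AMs (-0.41). The shares higher in vitro were 58.4% in MG, 45.5% in AMs, 29.9% in KCs and 2.6% in PMs. Mrpl28 was at 17.6 ± 0.937 CPM in sorted MG and 86.6 ± 3.80 CPM in MG-LCs (-2.35 ± 0.14, adjusted p = 0.000638). Mrpl27 was higher in vitro in all 4 populations (-1.61 ± 0.23 in MG, -1.31 ± 0.17 in AMs, -1.22 ± 0.37 in PMs and -1.14 ± 0.25 in KCs).

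Of 29 initiation factors, 16 were higher in vitro and 1 ex vivo in MG (median -0.72), 8 and 1 in KCs (-0.46), 1 and 0 in PMs (-0.23), and 14 and 2 in AMs (-0.38). The shares higher in vitro were 55.2% in MG, 48.3% in AMs, 27.6% in KCs and 3.45% in PMs. Eif3k, a subunit of the factor that loads the small subunit onto mRNA, had -1.82 ± 0.18 in MG (adjusted p = 0.00136), and Eif1ax, which helps to find the start codon, -2.21 ± 0.22 in KCs (adjusted p = 0.000685).

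For genes that assemble ribosomes, the shares called lay below those of all genes in both directions of each of the 4 comparisons. Of 49 biogenesis genes tested, 6 were higher in vitro and 6 ex vivo in MG (median -0.08), 2 and 3 in KCs (-0.07), 0 and 4 in PMs (0.27) and 8 and 10 in AMs (0.06). In MG this was 12.2% each way, in KCs 4.08% and 6.12%, in AMs 16.3% and 20.4%, and in PMs 0% and 8.16%. Nop10, a small part of the RNA-guided pseudouridylation complex, was among those higher in MG-LCs (-2.08 ± 0.18, adjusted p = 0.00102), and Tcof1, which promotes rRNA transcription, was higher in sorted AMs (74.5 ± 6.27 against 22.3 ± 2.66 CPM, 1.73 ± 0.15, adjusted p = 0.000222). Of 14 genes of RNA polymerase I, which transcribes rRNA, 1 was higher in vitro and 4 ex vivo in MG (median 0.26), 0 and 2 in KCs (0.02), 0 and 4 in PMs (0.25) and 2 and 3 in AMs (0.27). The shares higher ex vivo were 28.6% in MG, 28.6% in PMs, 21.4% in AMs and 14.3% in KCs, on 14 genes. Polr1a, its largest subunit, was higher ex vivo in all 4 populations: 42.8 ± 3.99 against 22.1 ± 6.92 CPM in MG (0.90 ± 0.27, adjusted p = 0.0339), with 2.26 ± 0.29 in KCs, 1.44 ± 0.19 in AMs and 1.38 ± 0.33 in PMs.

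Among 19 genes that control ribosome synthesis and translation by growth signals, 4 were higher ex vivo and 3 in vitro in MG, 5 and 2 in KCs, 1 and 1 of 18 in PMs, and 4 and 4 in AMs. Higher ex vivo were 26.3% in KCs, 21.1% in both MG and AMs, and 5.56% in PMs, with the MG share near the 21.2% of all genes. Eef2k, the kinase that slows elongation, was at 217 ± 23.2 CPM in sorted MG and 28.7 ± 9.69 CPM in MG-LCs (2.87 ± 0.28, adjusted p = 0.00134), and at 69.3 ± 10.9 against 16.9 ± 5.51 CPM in PMs and PM-LCs (2.04 ± 0.29, adjusted p = 0.00249). It did not pass in KCs (0.30 ± 0.27, adjusted p = 0.423) or AMs (-0.11 ± 0.32, adjusted p = 0.798).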

How the data were processed

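RNA-seq was made by the authors from low-input cDNA with single 50-base reads, and reads were trimmed with Trimmomatic, aligned with STAR and counted per gene. The submitters' processing notes name Trimmomatic 0.36, STAR 2.5.2b and a human build, while the study's methods name a mouse build, and the gene identifiers are mouse. The deposited values are raw read counts per gene, without normalization. Strand setting and the treatment of reads with several matches are not given in the sources used here.

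Samples were grouped by their labels. Counts were filtered (filterByExpr, minimum count 10), scaled by TMM and tested across all genes with the quasi-likelihood test of edgeR 4.0.16 in R 4.3.3: each population ex vivo against in vitro (6 libraries), the 4 populations and their 6 pairs within each state, and the interaction of population and state. A call is a Benjamini-Hochberg adjusted p under 0.05 over all genes. CPM use TMM-adjusted library sizes, and a floor of 3 counts was 0.066 to 0.115 CPM. The floors cover counting error only. A ± after a log2 fold change is an SE derived from that change and its quasi-likelihood F statistic, which carries the spread between libraries. A ± after a CPM is the SD of the libraries of a group. Alternatives were limma-voom (limma 3.58.1), DESeq2 1.42.0 with its size factors, other filters, a replicate block, removal of the trend on transcript length, scaling to the members, all 24 libraries in 1 model, a fold threshold, and leaving out each library. Scripts were tested on simulated data.

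The members and gene lists were chosen with earlier results of these data known. Named genes were the stalk genes and Rpsa, paralogs and their partners, the X-linked Rps4x, the 3 called genes with the largest change in each direction of each state comparison, those with the smallest p among populations and of the interaction, those highest per kb, and genes from each related list. The last were limited to 1 per list and comparison after their values were seen, and how a shift of a median was graded was also changed then. Rpl41 and Rpl23 in further comparisons, and the printed start sequences, were chosen after their values or sequences were seen. Countable windows and transcript lengths came from GENCODE vM21 transcripts. Whether same-numbered replicates share more than a number is not given by the labels. A few genes that these rules name are not reported here.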

Additional observations from a re-analysis of the deposited data

Results flagged for a closer look

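The difference between ex vivo and in vitro differed among the 4 populations in 48 members, by the interaction test of edgeR over all 24 libraries. Of the named core genes, the adjusted p was 2.15e-05 for Rpl23, 4.71e-05 for Rpl7, 1.20e-04 for Rps3a1, 0.000144 for Rps4x, 0.000293 for Rpl38, 0.000356 for Rpl29, 0.000619 for Rpl32, 0.000675 for Rps9 and 0.000916 for Rpsa. It was 0.0022 for Rpl39, 0.00221 for Rplp0, 0.00451 for Rplp1, 0.00567 for Rplp2, 0.00614 for Rpl10a, 0.00626 for Rpl22 and 0.0144 for Rps15a. Of the paralogs, Rpl7l1 had 0.0125, Rpl22l1 0.0132, Rps27rt 0.0310 and Rps27l 0.0397. Groups of 3 libraries were not tested for single outlying libraries.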

How the results depend on the processing

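Scaling the libraries to the members themselves, which moved the median of all genes by up to 1.82 on the log2 scale (MG 1.82, KCs 1.19, PMs -0.42, AMs 0.77), changed the counts by construction: 21 members were then higher ex vivo and 12 in vitro in MG, 4 and 0 in KCs, 0 ex vivo in PMs, and 11 and 9 in AMs. The member medians became 0.0020 in MG, 0.28 in KCs and 0.12 in AMs, and calls fell to 32 among sorted populations, 10 (MG and KCs), 36 (MG and PMs), 34 (MG and AMs), 23 (KCs and PMs) and 3 (PMs and AMs), 0 for cultured PMs and AMs, and 25 for the interaction. The log2 fold changes that turned included, in MG, Rps19bp1 1.18, Fau 0.44, Rpl22l1 0.73, Rpl36al 0.48, Rpl7l1 1.63, Rpl3 1.49, Rps4x 0.11, Rpl13a 0.016, Rps9 0.25, Eif3k 0.065, Eif1ax 0.28, Mrps18c 0.35, Gar1 1.76, Eif4a1 1.56, Pabpc1 0.41, Mrpl27 0.27, Eif2s2 1.16 and Mrpl41 0.85. In KC, those that turned included Rpl7l1 0.35, Eif4a1 0.44, Mrpl27 0.0089 and Eif2s2 0.13. Members not called in KCs turned too, among them Rps9 (-0.73 to 0.36), Rpl22l1 (-0.88 to 0.32), Rplp2 (-0.67 to 0.31), Rpl23 (-0.73 to 0.28), Rpl22 (-0.78 to 0.20), Rpsa (-0.79 to 0.094) and Rps4x (-0.92 to 0.031). The log2 fold changes that turned included, in AM, Rack1 0.11, Rpl36al 0.0070, Rpl7l1 0.37, Rplp1 0.21, Rplp2 0.48, Rpsa 0.12, Rpl3 0.39, Rpl7 0.29, Rpl10 0.76, Rpl22 0.00090, Rpl39 0.066, Rps4x 0.56, Rpl29 0.61, Rps9 0.21, Rpl23 0.075, Rps3a1 0.087, Nop10 0.57, Eif3k 0.53 and Eif1ax 0.032. These lists do not name every member that turned.

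Other settings moved counts, and the cause was not tested. In MG, 1 member was higher ex vivo with the replicate block and 0 above a log2 fold change of 1.5. In KCs, 24 were higher in vitro by limma-voom, 16 by DESeq2, 18 without the length trend, 36 in 1 model (4 ex vivo) and 4 above 1.5. In PMs, 7 ex vivo and 0 in vitro were called without a filter, 2 and 0 with the block, 21 and 2 without the length trend, 0 ex vivo above 1.5, and 0 in vitro by limma-voom, at 1 CPM and in 1 model. In AMs, 22 were higher in vitro in 1 model and 1 above 1.5, and the median without the length trend was -0.47. Between sorted populations, calls above 1.5 were 15 (MG and KCs), 15 (KCs and PMs), 2 (KCs and AMs) and 3 (PMs and AMs). KCs and AMs gave 17 by limma-voom, 14 by DESeq2 and 27 without the length trend, and PMs and AMs 16. Among cultured populations, DESeq2 called 3 and the length trend 2, pairs by DESeq2 were 1, 1, 2, 1, 3 and 3, KC-LCs and AM-LCs without the length trend gave 2, and PM-LCs and AM-LCs 0 without a filter or with the block and 2 without the length trend.

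Leaving out 1 library gave 1 to 4 members higher ex vivo and 51 to 63 in vitro in MG (median -2.01 to -1.65), 0 to 0 and 1 to 54 in KCs (-1.36 to -0.53), 0 to 16 and 0 to 4 in PMs (0.02 to 0.52), and 0 to 0 and 38 to 52 in AMs (-0.76 to -0.60). The calls among sorted populations were 63 to 76, and in pairs 31 to 66 (MG and KCs), 63 to 75 (MG and PMs), 54 to 64 (MG and AMs), 40 to 67 (KCs and PMs), 2 to 57 (KCs and AMs) and 12 to 65 (PMs and AMs). Cultured populations gave 1 to 1, their pairs 0 to 2, and the interaction 43 to 61. The mean shares were 0.182 to 0.185% and 0.476 to 0.656% for MG and MG-LCs, 0.240 to 0.431% and 0.553 to 0.666% for KCs and KC-LCs, 0.663 to 0.713% and 0.432 to 0.682% for PMs and PM-LCs, and 0.414 to 0.449% and 0.565 to 0.603% for AMs and AM-LCs.

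With the replicate block, 55 members were higher in vitro in MG, 6 in KCs and 46 in AMs. The labels do not say whether the numbers pair the libraries. Correlations of same-numbered deviations ran from -0.104 to 0.056 between states and from -0.061 to 0.043 between sorted populations. Between cultured populations they ran from -0.385 to 0.288, both in MG-LCs and PM-LCs. At this depth, Rpl10l stayed at or under 3 counts in every library and was not tested.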
